A study of Mus musculus with 6 samples.

Results

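Syndecans (Sdc1 to Sdc4) and glypicans (Gpc1 to Gpc6) are the families of proteoglycans that carry most of the heparan sulfate on the cell surface. They were taken by gene symbol from RNA sequencing tables of 393P cells, an epithelial murine lung adenocarcinoma (LUAD) line. All 10 genes were listed among 24214 RefSeq features, and 8 of the 10 had enough reads to be tested. The groups were 3 samples of 393P transfected with a ZEB1 expression vector (393P_ZEB1) and 3 transfected with the empty control vector (393P_vector). ZEB1 is a transcription factor that drives epithelial-to-mesenchymal transition (EMT). Both groups were transfectants of the same line, labelled as KP lung cancer cells of C57BL/6 origin, and both were grown in the same serum-containing medium. Because each group was a transfectant of a single line, differences between lines were not sampled. The labels do not say whether the samples came from separate cultures, so p-values measure the spread between these samples, which may be technical.

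Heparan sulfate is a linear sugar chain that is built in the Golgi on serine residues of a core protein and is then sulfated in patches that bind growth factors, chemokines and matrix proteins. Syndecans cross the plasma membrane and have a short cytoplasmic tail that binds PDZ proteins and protein kinase C, and metalloproteases can cut off their ectodomain. Glypicans are tied to the outer leaflet by a GPI anchor and modulate Wnt, Hedgehog, BMP and FGF signaling. In epithelia Sdc1 is the characteristic syndecan of the basolateral surface, whereas Sdc2 is typical of mesenchymal cells and Sdc3 of neural tissue.

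Total counts were between 54442450 and 79158012 per sample, and levels are given as CPM, the count relative to the TMM-normalized library size of edgeR. A floor of 3 counts, below which a gene was not called detected, was worth 0.0361 to 0.0561 CPM. Zeb1 itself was at 21.2, 22.0 and 21.4 CPM in 393P_vector and at 54.9, 48.9 and 51.3 CPM in 393P_ZEB1, and it was higher by 1.26 on the log2 scale (SE 0.10, edgeR quasi-likelihood test, adjusted p = 6.06e-05). All 5 epithelial markers (Cdh1, Epcam, Krt8, Krt18 and Esrp1) were lower in 393P_ZEB1 and all 4 markers of the mesenchymal state (Vim, Cdh2, Fn1 and Zeb2) were higher. The lung lineage markers Nkx2-1, Sftpc, Sftpb and Scgb1a1 had at most 5 counts in any sample, so the tissue of origin could not be read from them. Summed markers of other cell types stayed low. Fibroblast markers reached 2.23 to 3.0 CPM in 393P_vector and 0.936 to 1.1 in 393P_ZEB1 (1 of 3 tested fell), leukocyte markers 1.31 to 3.48 and 1.15 to 1.41 (2 of 2 tested did not pass), and endothelial markers 2.23 to 2.37 and 0.486 to 0.77 (1 of 2 fell). 393P_vector replicate 3 stood apart, with 20.2% of tested genes at least 1.5-fold from the mean of the other samples of its group, against 0.792% to 5.13% in the other 5 samples, and values that rest on it are given with and without it.

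Of the 8 members tested, 5 passed an adjusted p of 0.05 in the edgeR quasi-likelihood test. Sdc2, Sdc3, Gpc2 and Gpc4 rose in 393P_ZEB1 and Gpc1 fell. Sdc1, Sdc4 and Gpc6 did not pass, and Gpc3 and Gpc5 were near the limit of detection in all samples. In the same fit 37.6% of all 13892 tested genes passed, 18.3% with higher and 19.3% with lower counts in 393P_ZEB1, and the same 5 members were those whose sample values did not overlap between groups, against 52.8% of all tested genes. Without 393P_vector replicate 3, 7 of the 8 passed, with Sdc4 added to the genes that rose and Sdc1 to those that fell, against 53.0% of all genes tested in that fit. The median log2 fold change of all tested genes was -0.024. As in any bulk measurement, fewer cells with a transcript and less of it per cell cannot be told apart.

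**Figure D1:**
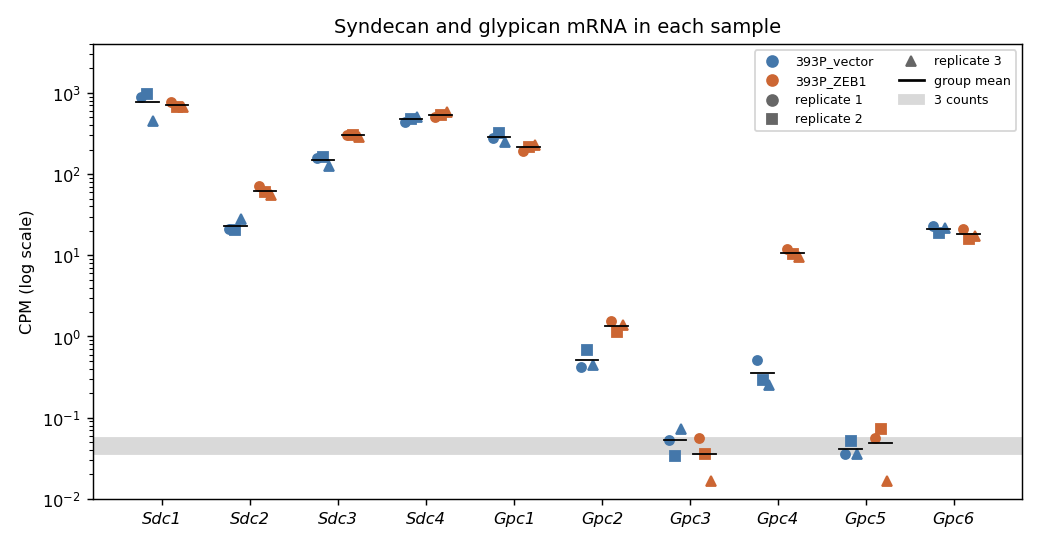
CPM on a log axis of each syndecan and glypican in each of the 3 393P_vector (blue) and 3 393P_ZEB1 (orange) samples, with the group means as bars and the level of 3 counts as a grey band. Gpc4 moved from 0.253 to 0.512 CPM in 393P_vector up to 9.58 to 11.8 CPM in 393P_ZEB1, whereas Gpc3 and Gpc5 lay around the grey band in both groups.

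Levels of different genes were compared per kilobase of exon. On this scale, Sdc1 (251 ± 91.7 CPM per kb, SD, n = 3) and Sdc4 (194 ± 13.5) were the most abundant members in 393P_vector. The ratio of Sdc1 to Sdc4 was 1.6, 1.62 and 0.702 in these samples, so that the order was reversed in 393P_vector replicate 3. Sdc1 and Sdc4 were followed by Gpc1 (80 ± 10.1), Sdc3 (29.7 ± 4.18), Sdc2 (7.01 ± 1.32) and Gpc6 (3.14 ± 0.3). Next were Gpc2 (0.206 ± 0.0567) and Gpc4 (0.152 ± 0.0607), which were within their spread of each other. The untested Gpc3 and Gpc5 were lowest, at 0.0235 and 0.0142 CPM per kb in 393P_vector and 0.016 and 0.0167 in 393P_ZEB1. In 393P_ZEB1, Sdc1 (229 ± 17.8) and Sdc4 (219 ± 14.6) again led and overlapped. Sdc3 (60.2 ± 1.77) reached the level of Gpc1 (60.2 ± 5.59), and Sdc2 (19.0 ± 2.56) followed. Gpc4 (4.59 ± 0.494) was then above Gpc6 (2.67 ± 0.401) and Gpc2 (0.543 ± 0.0769).

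Among the syndecans, Sdc2 and Sdc3 rose and the most abundant pair did not pass the test. Sdc2 (chr15:32920723-33034721, plus strand, GRCm38, 5 exons), the mesenchymal syndecan, was at 21.0, 20.3 and 28.2 CPM in 393P_vector and at 72.2, 59.9 and 56.0 CPM in 393P_ZEB1. The lowest 393P_ZEB1 sample was well above the highest 393P_vector sample, and Sdc2 was 2.7-fold higher (log2 fold change 1.44, SE 0.17, edgeR adjusted p = 0.000442). Sdc3 (chr4:130792537-130826318, plus strand, 5 exons), the syndecan typical of neural tissue, was at 156, 163 and 124 CPM in 393P_vector and 303, 305 and 289 CPM in 393P_ZEB1. It was 2.02-fold higher (log2 fold change 1.02, SE 0.13, edgeR adjusted p = 0.000553), and its 3 values in 393P_ZEB1 were close together. Antisense transcripts overlap Sdc3 exons by 415 bases (Gm26716) and 48 bases (Gm12970), and whether the counting used strand is not stated.

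Sdc1 (chr12:8771396-8793687, plus strand, 5 exons), the epithelial syndecan, was at 885, 964 and 445 CPM in 393P_vector and at 762, 668 and 669 CPM in 393P_ZEB1. The groups overlapped because 393P_vector replicate 3 was below every 393P_ZEB1 sample, whereas the other 393P_vector samples were above all of them. With all 6 samples the log2 fold change was -0.13 (95% CI -0.74 to 0.49, edgeR adjusted p = 0.737), and without 393P_vector replicate 3 it was -0.40 (adjusted p = 0.00352). Without 393P_vector replicate 2 it was 0.08, so its direction rested on single libraries. Sdc4 (chr2:164424247-164443188, minus strand, 5 exons), the syndecan of focal adhesions, was at 444, 478 and 510 CPM in 393P_vector and 503, 537 and 574 CPM in 393P_ZEB1. The groups overlapped, with a log2 fold change of 0.17 (95% CI -0.08 to 0.42, edgeR adjusted p = 0.242), or 0.22 without 393P_vector replicate 3 (adjusted p = 0.0486). In all 6 samples, every one of the 5 exons of each syndecan had over 10 reads.

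**Figure D2:**
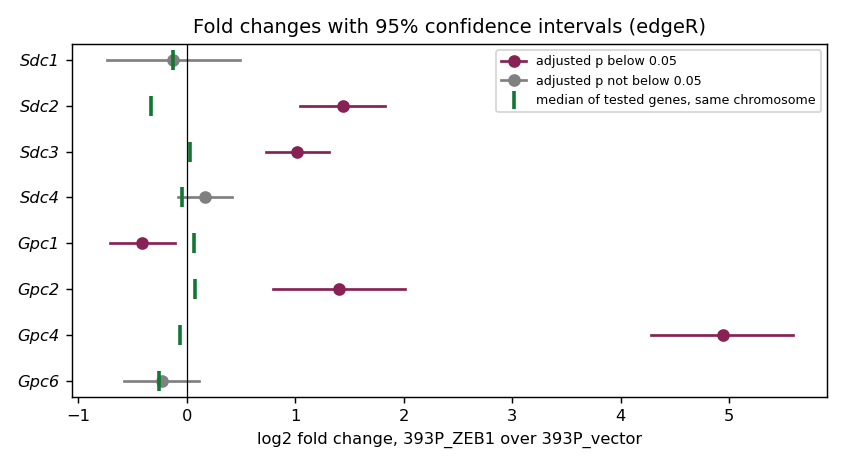
Log2 fold change of 393P_ZEB1 over 393P_vector for the 8 tested members (points) with 95% confidence intervals from edgeR (lines), coloured by whether the adjusted p was below 0.05, beside the median of the tested genes on the same chromosome (green ticks). Gpc4 lies at 4.94, Sdc2, Gpc2 and Sdc3 lie between 1.02 and 1.44, and the intervals of Sdc1, Sdc4 and Gpc6 cross 0.

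Among the glypicans, Gpc4 had the largest fold change of the members tested. Gpc4 (chrX:52053018-52164923, minus strand, 9 exons), a glypican known for modulating Wnt and BMP signaling, had 29, 17 and 21 counts in 393P_vector and 634, 580 and 585 counts in 393P_ZEB1. These are 0.512, 0.289 and 0.253 CPM against 11.8, 10.4 and 9.58 CPM. Gpc4 was 30.6-fold higher (95% CI 19.4 to 48.3, log2 fold change 4.94, SE 0.28, edgeR adjusted p = 9.58e-06), and its 3 samples per group were far apart from those of the other group. In 393P_ZEB1 all 9 exons had over 10 reads in each sample, against 1 of 9 exons in each 393P_vector sample.

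Gpc2 (chr5:138273660-138279937, minus strand, 10 exons), a glypican of the developing nervous system, had 24, 40 and 37 counts in 393P_vector and 82, 64 and 85 counts in 393P_ZEB1, or 0.424, 0.68 and 0.445 against 1.53, 1.15 and 1.39 CPM. The groups did not overlap, and Gpc2 was 2.64-fold higher (log2 fold change 1.40, SE 0.26, edgeR adjusted p = 0.00465). The level was low in both groups, with 0 to 1 exons over 10 reads in 393P_vector and 2 to 3 in 393P_ZEB1. An annotated transcript, Gm43720, shares 2376 exon bases with Gpc2 on the same strand, so reads of both cannot be told apart here.

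Gpc1 (chr1:92831686-92860196, plus strand, 9 exons), the most abundant glypican and a co-receptor for FGF2, was at 282, 320 and 248 CPM in 393P_vector and 191, 218 and 230 CPM in 393P_ZEB1. It was 1.33-fold lower (log2 fold change -0.41, SE 0.13, edgeR adjusted p = 0.0395), with all 393P_ZEB1 samples below all 393P_vector samples. The call was not firm. It was lost without 393P_vector replicate 1 (adjusted p = 0.0943) or 2 (0.12) and without 393P_ZEB1 replicate 1 (0.14), 2 (0.108) or 3 (0.0784), and it was kept without 393P_vector replicate 3 (-0.50, adjusted p = 0.00142). Ankmy1 on the opposite strand shares 977 exon bases with Gpc1, at 0.244 CPM in 393P_vector and 0.318 CPM in 393P_ZEB1.

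Gpc6 (chr14:116925315-117979529, plus strand, 10 exons), a paralog of Gpc4, was at 23.0, 19.0 and 21.5 CPM in 393P_vector and 21.1, 15.9 and 17.2 CPM in 393P_ZEB1. The groups overlapped, with a log2 fold change of -0.23 (95% CI -0.58 to 0.11, edgeR adjusted p = 0.259). Gpc3 (chrX:52272427-52613974, minus strand), the glypican mutated in an overgrowth syndrome, had 3, 2 and 6 counts in 393P_vector and 3, 2 and 1 in 393P_ZEB1. Gpc5 (chr14:115092215-116525192, plus strand) had 2, 3 and 3 counts and 3, 4 and 1 counts. For both a difference was not detectable at this depth and no fold change is given.

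The exact permutation test of each gene alone, two-sided, gave p = 0.1 for Sdc2, Sdc3, Gpc1, Gpc2 and Gpc4, the smallest p that 3 samples against 3 can give, and p = 1.0, 0.2 and 0.2 for Sdc1, Sdc4 and Gpc6. Fold changes were also set beside the median of the tested genes on the same chromosome. The differences from that median were 1.77 for Sdc2, 0.99 for Sdc3, 1.33 for Gpc2, 5.0 for Gpc4 and -0.47 for Gpc1 on the log2 scale, against 0.0 for Sdc1, 0.22 for Sdc4 and 0.03 for Gpc6.

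The genes that rose made up a small share of each family in 393P_vector. Summed over the 4 syndecans, the level was 509, 550 and 387 CPM per kb in 393P_vector and 538, 517 and 528 in 393P_ZEB1, so that the groups overlapped. Summed over the glypicans, it was 83.5, 93.6 and 73.6 in 393P_vector and 62.9, 69.0 and 72.1 in 393P_ZEB1, all lower than in 393P_vector. The ratio of the syndecan sum to the glypican sum was 6.09, 5.87 and 5.26 in 393P_vector and 8.55, 7.49 and 7.32 in 393P_ZEB1.

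Within the syndecan sum, the share of Sdc3 was 6.2% ± 0.243 (SD, n = 3) in 393P_vector and 11.4% ± 0.436 in 393P_ZEB1, and that of Sdc2 was 1.52% ± 0.593 and 3.59% ± 0.434. The share of Sdc1 was 57.0%, 57.5% and 37.7% in 393P_vector and 46.5%, 42.3% and 41.5% in 393P_ZEB1, so that 393P_vector replicate 3 lay below the 393P_ZEB1 samples. Its difference between group means was -7.3 percentage points, -13.8 without that sample, and -4.16 and -3.92 without 393P_vector replicate 1 and 2. The share of Sdc4 was 41.5% ± 10.5 and 41.6% ± 3.15, with a difference of 0.0268 percentage points, which took either sign when single samples were left out (-3.04 to 6.09). Within the glypican sum, Gpc1 held 95.7% ± 0.707 in 393P_vector and 88.4% ± 2.21 in 393P_ZEB1. Gpc4 held 0.182% ± 0.0721 and 6.8% ± 1.22, and Gpc2 held 0.245% ± 0.0438 and 0.804% ± 0.156. Gpc6 held 3.81% ± 0.699 and 3.97% ± 0.866. Shares of a family add up to its whole, so a higher share of Gpc4 lowers that of Gpc1, and the shares are not separate results. By exact permutation tests, the p of the shares of Sdc2, Sdc3, Gpc1, Gpc2 and Gpc4 was 0.1, the smallest possible here, with no overlap between groups (0.16 after adjustment over 8 shares), and that of Sdc1, Sdc4 and Gpc6 was 0.4, 1.0 and 0.9.

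**Figure D3:**
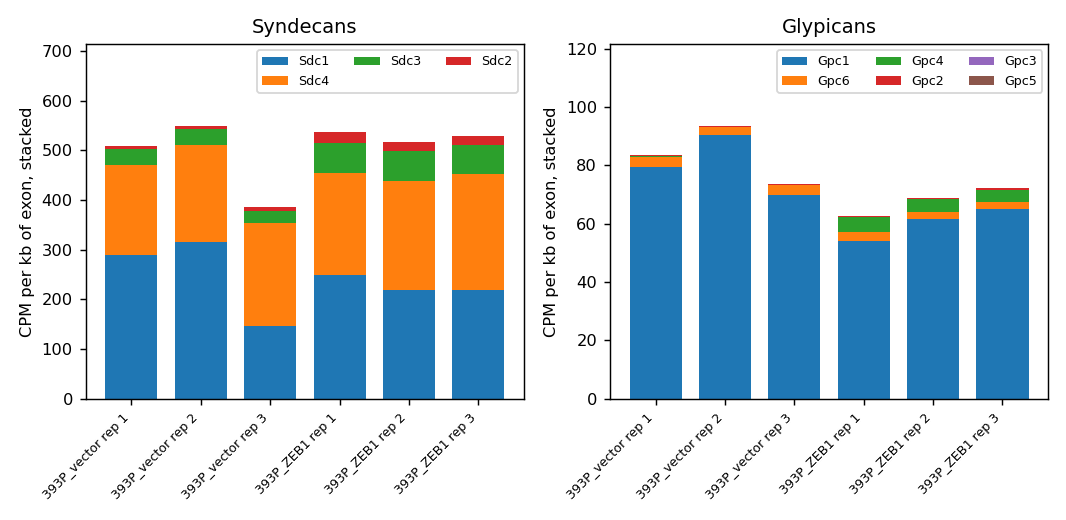
Stacked bars of CPM per kb of exon for the syndecans (left) and glypicans (right) in each of the 6 samples, 1 bar per sample. Sdc1 and Sdc4 filled most of the syndecan bars in all samples, with Sdc1 lowest in 393P_vector replicate 3, and Gpc4 was visible as a layer in the glypican bars of 393P_ZEB1, at 5.74% to 8.14% of each sum.

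The positions of the members were examined next, because several glypican genes lie in tandem. Gpc4 and Gpc3 are 108 kb apart on the X chromosome and Gpc5 and Gpc6 400 kb apart on chromosome 14, and of these 4 genes Gpc4 passed, Gpc6 did not, and Gpc3 and Gpc5 were not tested. The tested gene next to Gpc4 on its other side, 371 kb away, was Hs6st2, an enzyme that adds 6-O sulfates to heparan sulfate. Hs6st2 was at 0.165 ± 0.0362 CPM in 393P_vector and 3.26 ± 0.274 CPM in 393P_ZEB1 (SD, n = 3), and it was 19.8-fold higher (log2 fold change 4.30, edgeR adjusted p = 8.28e-06). Its reads in 393P_vector (0.159, 0.204 and 0.132 CPM) were too few to be tested by themselves. Hs6st2 entered the test through the 393P_ZEB1 samples, where it was high. Phf6 and Hprt, beyond Gpc3, had log2 fold changes of -0.04 and -0.22 and did not pass. Within 1000 kb of the midpoint of Gpc4, 3 of 9 other tested genes were higher and 1 was lower. The higher genes include C430049B03Rik and Mir351, with midpoints 946.2 and 944.3 kb away, which were counted separately. Next to Gpc2, Stag3 at 0.572 kb (log2 fold change 1.57, edgeR adjusted p = 0.0061) and 6330418K02Rik at 7.0 kb (1.40, adjusted p = 0.00231) also rose, both from levels below 1 CPM. Within 1000 kb of Gpc2, 15 of 50 other tested genes were higher and 2 were lower. The largest changes in that window were those of Pilra, Pilrb1 and Pilrb2 (log2 fold change 6.53, 4.64 and 4.69). Over all tested genes, 18.3% were higher and 19.3% lower, and the differences from these shares were not tested.

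**Figure D4:**
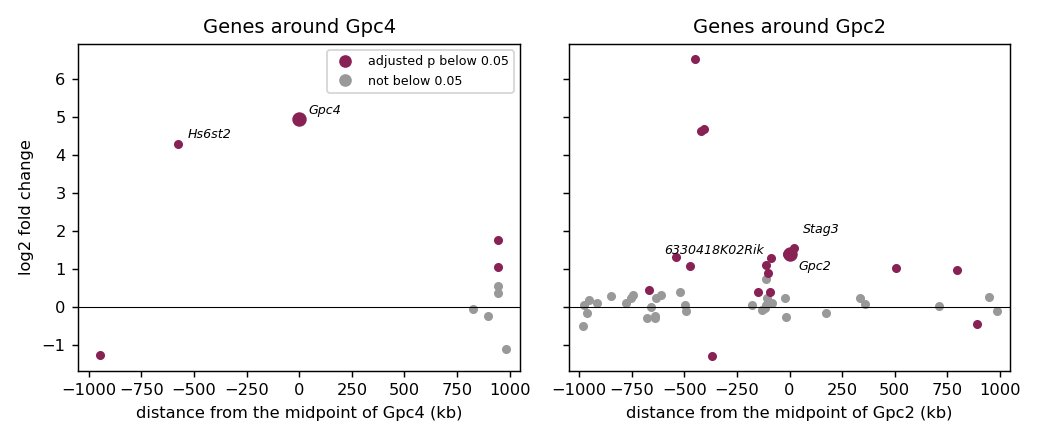
Log2 fold change of every tested gene within 1000 kb of the midpoint of Gpc4 (left) and of Gpc2 (right), plotted by distance from that midpoint in kb and coloured by whether the adjusted p was below 0.05. Hs6st2 is the gene nearest to Gpc4 in size of change, at 4.30 against 4.94, and Gpc2 (1.40) lies beside Stag3 (1.57) and 6330418K02Rik (1.40).

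The sequence before the transcription start was read for the members with a RefSeq window, because ZEB1 is known to bind E-boxes of the form CAGGTG or its reverse complement CACCTG. Windows of 300 bases, from 250 before to 50 after the start, were present for 7 of the 10 members (build GRCm38.p6). The windows of Gpc4, Sdc3 and Gpc2, the members that rose and have a window, are shown from 250 bases before the start to the base before it, 5′ to 3′ on the strand of the gene, with any CANNTG in capitals. Gpc4 lies at chrX:52164924-52165173 (minus), Sdc3 at chr4:130792287-130792536 (plus) and Gpc2 at chr5:138279938-138280187 (minus).
Gpc4: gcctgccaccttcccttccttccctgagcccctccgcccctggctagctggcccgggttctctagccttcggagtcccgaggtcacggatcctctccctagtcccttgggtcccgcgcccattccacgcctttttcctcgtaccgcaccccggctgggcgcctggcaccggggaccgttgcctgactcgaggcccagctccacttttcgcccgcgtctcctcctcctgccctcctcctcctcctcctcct
Sdc3: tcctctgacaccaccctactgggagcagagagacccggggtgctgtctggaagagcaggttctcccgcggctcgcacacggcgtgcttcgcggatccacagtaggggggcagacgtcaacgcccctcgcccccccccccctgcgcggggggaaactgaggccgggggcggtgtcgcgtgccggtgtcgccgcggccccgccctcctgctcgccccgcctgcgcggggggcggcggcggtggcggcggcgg
Gpc2: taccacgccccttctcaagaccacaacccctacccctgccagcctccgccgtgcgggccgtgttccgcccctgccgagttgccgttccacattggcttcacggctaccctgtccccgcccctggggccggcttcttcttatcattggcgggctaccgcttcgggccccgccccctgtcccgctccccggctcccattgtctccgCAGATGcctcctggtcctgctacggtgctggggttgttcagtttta

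CAGGTG or CACCTG was in 0 of the 7 windows of 300 bases, against 20.2% of all 32851 windows, and these letters may lie outside the window. The wider CANNTG, searched on both strands since it is its own reverse complement, was in 2 of 7 windows, those of Gpc2 (CAGATG, from 46 bases before the start) and Sdc1 (CAACTG, from 34 bases before it), against 72.3% of all windows. These windows were rich in G and C. The GC content was 66.7% for Gpc4, 77.7% for Sdc3, 65.7% for Gpc2, 66.3% for Sdc1, 67.7% for Sdc4, 70.7% for Gpc3 and 54.7% for Gpc5, against a median of 52.7% over all windows.

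The 3′ UTRs were searched for sites of the miR-200 family, microRNAs that are in reciprocal repression with ZEB1. The family has 2 seeds (bases 2 to 8, in capitals), which differ at a single base and pair with the sites CAGTATT and CAGTGTT. The RefSeq mature sequences are given as 1 example of each seed.
miR-200b-3p: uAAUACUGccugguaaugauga
miR-200a-3p: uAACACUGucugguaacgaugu
miR-200c-3p and miR-429-3p share the seed of miR-200b-3p, and miR-141-3p shares that of miR-200a-3p.

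Of the 10 members, Sdc2 and Gpc2 had a site in the 3′ UTR of their longest coding transcript in GENCODE M21, and 30.5% of 11965 tested genes with a 3′ UTR had either site. The matches were of the 7mer-m8 kind, pairing with bases 2 to 8, and none of the members had an 8mer. Sdc2 had both kinds of site, CAGTGTT at position 199 (chr15:33032739-33032745) and CAGTATT at position 747 (chr15:33033287-33033293) of its 2395 bases, and Gpc2 had CAGTGTT at position 604 of 655 (chr5:138273700-138273706). The sites are shown within 28 bases, with the match to the seed in capitals.
Sdc2 first site: ctaacatctgCAGTGTTctgtgaatagc
Sdc2 second site: aagatgctaaCAGTATTttgagaagttg
Gpc2 site: cttcatatttCAGTGTTcatatcagtgt

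Both genes with a site rose, and so did Sdc3 and Gpc4, whose 3′ UTRs of 3510 and 500 bases had no match. Sdc1, Sdc4, Gpc1 and Gpc6 also had no match in 3′ UTRs of 1908, 1839, 2215 and 1458 bases. CAGTATT alone was in 1 of 10 members against 15.8% of genes, and CAGTGTT in 2 of 10 against 21.0%.

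Genes that build, edit and use heparan sulfate were counted in 9 lists with 74 genes in all, of which 61 were tested. Of these, 20 rose, 11 fell and 30 did not pass, so that 50.8% passed against 37.6% of all tested genes, with a median log2 fold change of 0.09 against -0.024. Without 393P_vector replicate 3, 26 rose and 17 fell, and 53.0% of all genes passed in that fit. The lists were chosen with earlier results of these data known. These shares are therefore descriptions, and their difference from all genes was not tested.

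Results for the first steps of chain synthesis were mixed. Of the enzymes that make or modify the linkage tetrasaccharide between core protein and chain, 33.3% passed, against 37.6% of all tested genes. In this list 2 of 6 tested rose (median log2 fold change 0.38). These were Fam20b, the xylose kinase (141 ± 6.74 CPM in 393P_vector, 194 ± 12.4 in 393P_ZEB1, log2 fold change 0.46), and Pxylp1, the phosphatase that reverses it (8.18 ± 0.544 and 13.9 ± 0.939 CPM, 0.77). The glycosyltransferases Xylt2, B4galt7, B3galt6 and B3gat3 did not pass. B4galt7 (35.3 ± 6.61 and 47.7 ± 0.5 CPM) and B3gat3 (37.7 ± 3.56 and 45.3 ± 2.29) were higher in 393P_ZEB1 without overlap, against 52.8% of all tested genes without overlap. Without 393P_vector replicate 3, B4galt7 passed (0.29, edgeR adjusted p = 0.0126). In that fit 3 of the list rose, and 53.0% of all genes passed. The chain polymerases had 1 of 4 tested higher (median 0.07). Ext1 was at 193 ± 11.8 and 325 ± 2.96 CPM (log2 fold change 0.75, edgeR adjusted p = 0.000632), whereas Ext2, its partner in the polymerase complex, was at 152 ± 15.2 and 145 ± 8.43 CPM and did not pass (-0.07, adjusted p = 0.657). Without 393P_vector replicate 3, 2 of the Ext and Extl genes rose and 1 fell, against 53.0% of all genes that passed. Extl2 (0.35, adjusted p = 0.00963) and Extl3 (-0.50, adjusted p = 0.00663) then passed.

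Among the enzymes that modify the chain, 7 of 15 tested rose and 1 fell (median log2 fold change 0.39). Of this list 53.3% passed, against 37.6% of all tested genes. Papss2, which makes the sulfate donor PAPS, was at 0.83, 0.68 and 0.927 CPM in 393P_vector and at 33.6, 35.7 and 34.1 CPM in 393P_ZEB1. It was 42.1-fold higher (log2 fold change 5.40, SE 0.17, edgeR adjusted p = 6.51e-07). Its paralog Papss1, which makes the same donor, was at 92.7 ± 12.9 and 111 ± 8.06 CPM and did not pass (0.25, adjusted p = 0.156), or passed at 0.37 without 393P_vector replicate 3 (adjusted p = 0.00381). Ndst1, the main N-deacetylase and N-sulfotransferase, was at 128 ± 4.23 and 206 ± 8.68 CPM (0.69), and Slc35b3, a PAPS transporter of the Golgi, at 14.5 ± 2.33 and 21.3 ± 1.57 CPM (0.56). Hs6st1, the abundant 6-O-sulfotransferase, fell from 67.2 ± 4.69 to 45.8 ± 2.55 CPM (-0.55, edgeR adjusted p = 0.00507), while its paralog Hs6st2 rose to a far lower level. The other genes that rose, Ndst3, Hs3st3b1 and Hs3st5, had log2 fold changes of 1.63, 1.04 and 2.44 and did not exceed 2.92 CPM in any sample. They fell below the level set for naming and are given after their values were seen. Hs3st5, with a mean of 0.0939 CPM in 393P_vector, entered the test through the 393P_ZEB1 samples.

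Enzymes that act on finished chains at the surface were at low levels, and their values too were seen before they were named. The 6-O-endosulfatases rose, Sulf1 from 0.436 ± 0.137 to 1.20 ± 0.168 CPM and Sulf2 from 0.581 ± 0.175 to 3.15 ± 0.312 CPM (log2 fold change 1.47 and 2.42). Heparanase, Hpse, fell from 2.96 ± 0.552 to 0.617 ± 0.069 CPM (-2.26, edgeR adjusted p = 0.000184). Of the 7 lysosomal enzymes of heparan sulfate degradation, Gusb alone passed, at 79.3 ± 18 and 116 ± 9.43 CPM (0.54, edgeR adjusted p = 0.0361), and the list median was -0.08. The share that passed was 14.3%, against 37.6% of all tested genes.

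**Figure D5:**
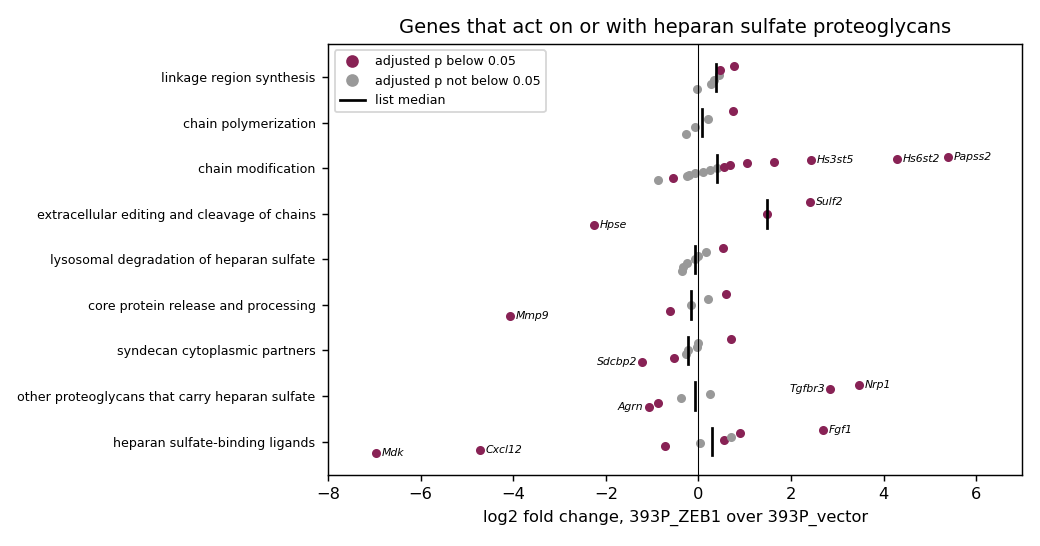
Log2 fold change of 393P_ZEB1 over 393P_vector for the 61 tested genes of the 9 heparan sulfate lists, 1 point per gene and 1 row per list, coloured by whether the adjusted p was below 0.05, with list medians as black bars. Medians lie between -0.23 and 0.39 except for extracellular editing at 1.47, which has 3 tested genes, and single genes reach from -6.96 (Mdk) to 5.40 (Papss2).

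Of the proteases and lipases that release or process core proteins, 1 of 5 tested rose and 2 fell (median log2 fold change -0.16). The share that passed was 60.0%, against 37.6% of all tested genes. Adam10, a sheddase, was at 135 ± 12.9 and 205 ± 39.7 CPM (0.60, edgeR adjusted p = 0.0188), and Furin, the convertase that cuts glypican precursors, fell from 303 ± 45.8 to 196 ± 16.3 CPM (-0.62, adjusted p = 0.00948). Mmp9 also fell, from 2.30 ± 0.249 to 0.134 ± 0.0852 CPM (-4.07). In 393P_ZEB1 replicate 2 Mmp9 was at 0.036 CPM, below the floor of 3 counts, so the size of this change is uncertain. Of the 7 proteins that bind syndecan tails, 1 rose and 2 fell (median -0.23), so that 42.9% passed against 37.6% of all tested genes. Cask, a PDZ scaffold of syndecans, was at 25.2 ± 4.88 and 41.1 ± 1.53 CPM (0.71), Sdcbp2 (syntenin-2) fell from 71.4 ± 11.9 to 30.9 ± 5.3 CPM (-1.21, adjusted p = 0.00131), and Prkca, a kinase activated at Sdc4, fell from 88.8 ± 7.21 to 62.0 ± 1.53 CPM (-0.52). Sdcbp (syntenin-1) was at 146, 146 and 255 CPM in 393P_vector and at 176, 195 and 169 CPM in 393P_ZEB1. It did not pass (-0.02, adjusted p = 0.959), and without 393P_vector replicate 3 it rose (0.30, adjusted p = 0.0107). In that fit, where 53.0% of all genes passed, 2 of the 7 rose and 4 fell. Gipc1 (-0.24, adjusted p = 0.0371) and Tiam1 (-0.48, adjusted p = 0.00465) were added to those that fell.

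Other proteins that can carry heparan sulfate went in both directions, with 2 of 6 tested higher and 2 lower (median log2 fold change -0.07). The share that passed was 66.7%, against 37.6% of all tested genes. The part-time proteoglycans of the membrane Nrp1, a semaphorin and VEGF co-receptor, and Tgfbr3 (betaglycan), a TGF-beta co-receptor, rose. Nrp1 was at 9.63 ± 1.08 and 106 ± 10.5 CPM, 11-fold higher (3.47, edgeR adjusted p = 2.16e-06), and Tgfbr3 at 2.08 ± 0.176 and 15 ± 0.285 CPM, 7.23-fold higher (2.85, adjusted p = 4.99e-06). The basement membrane proteoglycans Agrn (480, 501 and 303 CPM against 186, 205 and 221) and Col18a1 (808, 897 and 407 CPM against 386, 363 and 406) fell, with log2 fold changes of -1.07 and -0.87. Hspg2 (perlecan) did not pass (-0.38, adjusted p = 0.254), and without 393P_vector replicate 3 it fell (-0.63, adjusted p = 0.000267). In 393P_vector replicate 3, Agrn, Hspg2 and Col18a1 stood at 0.618, 0.524 and 0.478 times the mean of the other 393P_vector samples, and Sdc1 at 0.481 times.

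Of the 8 tested ligands that bind heparan sulfate, 3 rose and 3 fell (median log2 fold change 0.3). Mdk (midkine), a heparin-binding growth factor, was at 26.1, 30.7 and 29.7 CPM in 393P_vector and at 0.336, 0.18 and 0.18 CPM in 393P_ZEB1. It was 124-fold lower (-6.96, SE 0.25, edgeR adjusted p = 1.43e-06). Cxcl12 fell from 4.88 ± 0.365 to 0.183 ± 0.029 CPM (-4.73) and Vegfa from 126 ± 10.7 to 75.9 ± 7.52 CPM (-0.73, adjusted p = 0.00205). Hbegf, an EGF receptor ligand that binds heparan sulfate, rose from 261 ± 22.6 to 488 ± 13.4 CPM (0.90), Fgf1 from 1.24 ± 0.119 to 8 ± 0.722 CPM (2.69), and Fn1, the matrix protein fibronectin, from 2420 ± 174 to 3570 ± 175 CPM (0.56).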

How the data were processed

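The data were 6 total RNA libraries of 393P cells sequenced on the SOLiD platform, 3 per group, grouped by the labels. For 24214 RefSeq features the authors deposited raw read counts per sample, together with coordinates, exon length and the number of exons with over 10 reads. They also deposited an RPKM (count scaled by exon length and total reads), used only for alternative shares. The aligner, the counting program and its use of strand are not given in the sources used here. The coordinates were those of GRCm38, since 99.4% of 20808 single-locus symbols overlapped the RefSeq gene of that name.

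Counts were fitted in R 4.3.3 with edgeR 4.0.16 (filterByExpr with a minimum count of 10, TMM, robust quasi-likelihood test, Benjamini-Hochberg adjustment over all 13892 genes tested, threshold 0.05). The filter asks for enough reads in only as many samples as a group holds. Hs6st2, Hs3st5, Mmp9 and Cxcl12 therefore entered the test through the group where they were higher. Standard errors were derived from the F statistic. SDs are of CPM over samples, and exact permutation tests, two-sided, used log2 CPM with a pseudocount of 0.5 and the shares. CPM per kb divided CPM by the deposited exon length. Pxylp1 was matched by its RefSeq synonym Acpl2. All members were reported, and from each list every gene past the threshold with a mean of at least 5 CPM, at most 4 by fold change, was named, with the others said to be named after their values were seen. Of the genes in the text, Hs6st2, Mmp9, Cxcl12, Fgf1, Sdcbp, Gipc1, Tiam1, Extl2, Extl3, Papss1, Hspg2 and Ext2 were also chosen that way. So were Cd44, Xylt2, B4galt7, B3galt6, B3gat3, Pilra, Pilrb1, Pilrb2, C430049B03Rik and Mir351. Members and lists were chosen with earlier results of these data known. Alternatives were DESeq2 1.42.0 (test and size factors), limma 3.58.1 with voom, other filters and thresholds, the replicate block, single samples left out and chromosome medians. Python 3.11.15 and pandas 2.3.3 read the RefSeq windows and GENCODE M21 3′ UTRs.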

Additional observations from a re-analysis of the deposited data

How the results depend on the processing

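Sdc2, Sdc3, Gpc2 and Gpc4 kept their direction and passed in all 15 alternatives, with log2 fold changes of 1.33 to 1.77, 0.91 to 1.10, 1.29 to 1.64 and 4.60 to 5.30. The shares of Sdc1, Sdc2, Sdc3, Gpc1, Gpc2 and Gpc4 kept their direction in all 7 alternatives, whereas the differences of Sdc4 (-3.04 to 6.09 percentage points) and Gpc6 (-0.337 to 0.442) took both signs. Shares within a family depend on each other, so these are not separate results. With limma-voom, Sdc1 (-0.39, adjusted p = 0.00536), Sdc4 (0.26, 0.00887) and Gpc6 (-0.33, 0.0248) also passed. Gpc1 did not pass at -0.41 in the test against a fold of 1.5 or at an adjusted p of 0.01, and relative to the chromosome median Sdc1 was at 0.0 and Gpc6 at 0.03. With single samples left out, Sdc1 ranged from -0.40 to 0.08, Sdc4 from 0.13 to 0.22 and Gpc1 from -0.50 to -0.31. The cause was not tested, except that limma-voom weights samples by quality.

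The labels number replicates alike in both groups, but deviations from the group mean correlated at 0.279, -0.205 and -0.0377 for equal numbers and -0.182 to 0.222 for unequal ones, so the numbers were not taken to pair the samples. With the number as a replicate block, Gpc1 stayed at -0.41 with an adjusted p of 0.0766 (edgeR), and over all genes 2180 were higher and 2256 lower.

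Over all genes, limma-voom called 3977 higher and 4094 lower, the test against 1.5-fold 1081 and 1118, and an adjusted p of 0.01 1584 and 1545. With single samples left out, 1861 to 3700 were higher and 1784 to 3776 lower. In the heparan sulfate lists, the test against 1.5-fold left 10 higher and 6 lower, and limma-voom gave 28 higher and 19 lower. Single samples left out gave 17 to 26 higher and 10 to 17 lower. The wider E-box CANNTG was in 2 member windows, and 0 members had a miR-200 8mer. Depth limits Gpc3 and Gpc5, which had at most 6 counts per sample.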

Other observations

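Over the 6 samples, the genes of at least 5 CPM whose log2 CPM was most like that of Sdc1 among 10103 compared were Slc35c2 (Pearson r 0.9983), Rab11fip3 (0.9958) and 5031439G07Rik (0.9955). The genes most like Gpc1 were Uqcc (0.9974), Bud13 (0.9974) and Wdr24 (0.9964). These are descriptions, since the samples share 2 conditions and 393P_vector replicate 3 stands apart, and no test was made. Slc35c2 had a log2 fold change of -0.04 and Uqcc of -0.29, and neither passed (edgeR adjusted p = 0.837 and 0.0864).

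Of 32 distinct tested genes among the nearest on either side of the members, 5 were higher and 8 were lower, against 18.3% and 19.3% of all tested genes. Ptpru, 942 kb from Sdc3, rose from 4.33 to 25.7 CPM (log2 fold change 2.57, edgeR adjusted p = 2.85e-05), and 0610007N19Rik near Sdc2 rose from a level below 1 CPM (1.39, adjusted p = 0.0132). Sema5a, 224 kb from Sdc2, fell from 6.92 to 1.85 CPM (log2 fold change -1.90, edgeR adjusted p = 5.23e-05), and Pgcp, 48.4 kb away on the other side, did not pass (0.33). Matn4 and Slpi, 19.1 and 67.7 kb from Sdc4, fell from levels below 1 CPM (-2.11 and -3.99). Mir17hg, the host transcript of a microRNA cluster 45.5 kb from the Gpc5 gene, fell from 5.89 to 2.84 CPM (-1.06, adjusted p = 0.00783).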
